A study of Mus musculus with 3 samples.

Results

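The galectins are a family of lectins, proteins that bind sugar chains ending in galactose, and this report gives their transcript levels in mouse melan-a melanocytes. The 8 galectin genes *Lgals1*, *Lgals2*, *Lgals3*, *Lgals4*, *Lgals7*, *Lgals8*, *Lgals9* and *Lgals12* were taken with *Lgals3bp*, which encodes a glycoprotein that galectins bind. These 9 of the 22698 genes in the deposited files were chosen by family name, at a time when their FPKM values in these same files were known, so every value is given as a description and none was tested.

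Galectins have no signal peptide. They are made in the cytosol, leave the cell by an unusual route and act on both sides of the membrane: outside, they cross-link glycoproteins at the cell surface and in the matrix, and inside, they mark damaged vesicles and take part in signaling and RNA processing. Prototype galectins carry a single sugar-binding domain per chain, tandem-repeat galectins carry a pair of different domains joined by a linker, and galectin-3, the chimera type, joins its domain to a long flexible tail through which it can form multimers. In melanocytes and melanoma, galectin-1 and galectin-3 are the members studied most often.

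The samples were 3 replicates, labelled 1, 3 and 4, of melan-a cells, an immortalized line of mouse melanocytes. The labels give the strain background as C57BL/6J and say that the melanocytes came from Ink4a-ARF-/- mice. All replicates were grown with serum, with the phorbol ester 12-O-tetradecanoylphorbol 13-acetate and with cholera toxin, and were otherwise untreated, so no second condition exists in these files. They are 1 cell line, and the sources used here do not say whether the replicates were separate cultures, so the SD given with each mean measures only the spread between these 3 libraries.

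The value of a gene is its FPKM, the number of reads on the gene per kilobase of its length, scaled to the size of the library. Comparison of levels between genes depends on the gene lengths used by the authors, which are not stated in the sources used here. The files give FPKM to 2 decimals without counts. Low values of genes with 1 annotated transcript fell on whole numbers of reads, which put the scaled library sizes at 53900000, 46900000 and 66300000 reads in replicates 1, 3 and 4. On a gene of 1 kb, 3 reads then came to 0.0557, 0.0640 and 0.0452 FPKM. Read numbers and intervals given below rest on these estimates and on exon lengths from an annotation close to that of the authors, and the intervals (exact Poisson, 95%) cover counting error only.

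All 8 genes listed as melanocyte markers were above 1 FPKM in every replicate, a minimum that 44.1% of all genes reached. They ran from *Mitf* with a mean of 22.1 FPKM to *Tyrp1* with 3144 FPKM. Their sum was 6604, 5779 and 6617 FPKM in replicates 1, 3 and 4. The markers of other cell types were low. The 6 fibroblast markers summed to between 1.61 and 1.95 FPKM, with *Lum* at 0 in every replicate. Most of this sum was *Col1a1*, at 1.51, 1.77 and 1.33 FPKM in replicates 1, 3 and 4. It was the only marker of another cell type at or above 1 FPKM in every replicate. The 6 markers of macrophages and other immune cells summed to between 0.78 and 1.61 FPKM, nearly all of it *Cd68*, a lysosomal protein, while *Ptprc*, *Itgam* and *Cd3e* were listed at 0 throughout. The summed level lay between 0.41 and 0.75 FPKM for 6 keratinocyte markers, of which *Krt1* and *Trp63* were at 0, and between 0.48 and 0.61 FPKM for 5 markers of intestinal epithelium. It did not exceed 0.1 FPKM for 4 markers of adipocytes and 0.03 FPKM for 3 of endothelium. In bulk RNA a low level in every cell and a high level in few cells cannot be told apart.

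Sugar binding by galectins rests on a short conserved block of the domain in which a histidine, an asparagine and an arginine touch the galactose. The annotated coding sequence of each gene was searched for codons that read histidine, any residue, asparagine, proline and arginine, since this block tells which members carry the usual binding residues. *Lgals1*, *Lgals2*, *Lgals3* and *Lgals7* hold it at 1 site, *Lgals4*, *Lgals8* and *Lgals9* hold it at 2 sites, and *Lgals12* and *Lgals3bp* do not hold it. The coding strand of these blocks is shown from 5′ to 3′, as read from the mouse transcripts of assembly NCBIM37 (mm9). The 15 bases of the block are in capitals, between 15 bases on each side in lower case.
*Lgals1*: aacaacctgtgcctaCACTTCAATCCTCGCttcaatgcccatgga
*Lgals3*: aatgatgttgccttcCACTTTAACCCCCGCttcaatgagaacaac
*Lgals9* first domain: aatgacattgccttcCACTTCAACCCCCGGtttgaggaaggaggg
*Lgals9* second domain: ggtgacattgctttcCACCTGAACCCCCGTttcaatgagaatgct
*Lgals8* first domain: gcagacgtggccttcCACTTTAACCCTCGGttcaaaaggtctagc
*Lgals8* second domain: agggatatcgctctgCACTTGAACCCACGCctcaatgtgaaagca
*Lgals2*: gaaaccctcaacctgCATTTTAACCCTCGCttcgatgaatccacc
*Lgals4* first domain: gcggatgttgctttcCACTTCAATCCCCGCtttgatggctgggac
*Lgals4* second domain: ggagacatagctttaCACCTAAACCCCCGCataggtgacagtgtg
*Lgals7*: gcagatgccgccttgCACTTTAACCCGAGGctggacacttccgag
*Lgals12* nearest block: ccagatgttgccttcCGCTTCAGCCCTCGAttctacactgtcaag

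Every block lies within a single coding exon. In *Lgals1* it is codons 45 to 49 of 135, in exon 3 of 4, at chr15:78760106-78760120 on the plus strand. In *Lgals3* it is codons 172 to 176 of 264, in exon 5 of 6, at chr14:48004317-48004331 on the plus strand, behind the stretch that encodes the tail. The blocks of *Lgals9* are codons 60 to 64 and 265 to 269 of 353, in exons 3 and 10 of 11, at chr11:78786628-78786642 and chr11:78779302-78779316 on the minus strand. Those of *Lgals8* are codons 64 to 68 and 228 to 232 of 316, in exons 5 and 10 of 11, at chr13:12547140-12547154 and chr13:12539519-12539533 on the minus strand. Between the 15 bases of the block in *Lgals1* and those of the other sites, 1 to 5 bases differed, the fewest at the first site of *Lgals4* and the most in *Lgals7* and at the second site of *Lgals9*. *Lgals12* has no full block. Its nearest one, codons 73 to 77, matches at 2 of the 4 fixed positions.

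Of the 9 genes, 5 (55.6%) were at or above 1 FPKM in every replicate, namely *Lgals1*, *Lgals3*, *Lgals3bp*, *Lgals9* and *Lgals8*. Of all 22698 genes, 10011 (44.1%) passed the same minimum. The 5 expressed members include a prototype galectin, the chimera galectin and a pair of tandem-repeat galectins, so each structural type was present. The other 4, *Lgals2*, *Lgals4*, *Lgals7* and *Lgals12*, stayed below 1 FPKM in every replicate. The members nearest to the minimum were *Lgals8* on the upper side, with a lowest value of 14.04 FPKM, and *Lgals4* on the lower side, with a highest value of 0.79 FPKM.

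**Figure D1:**
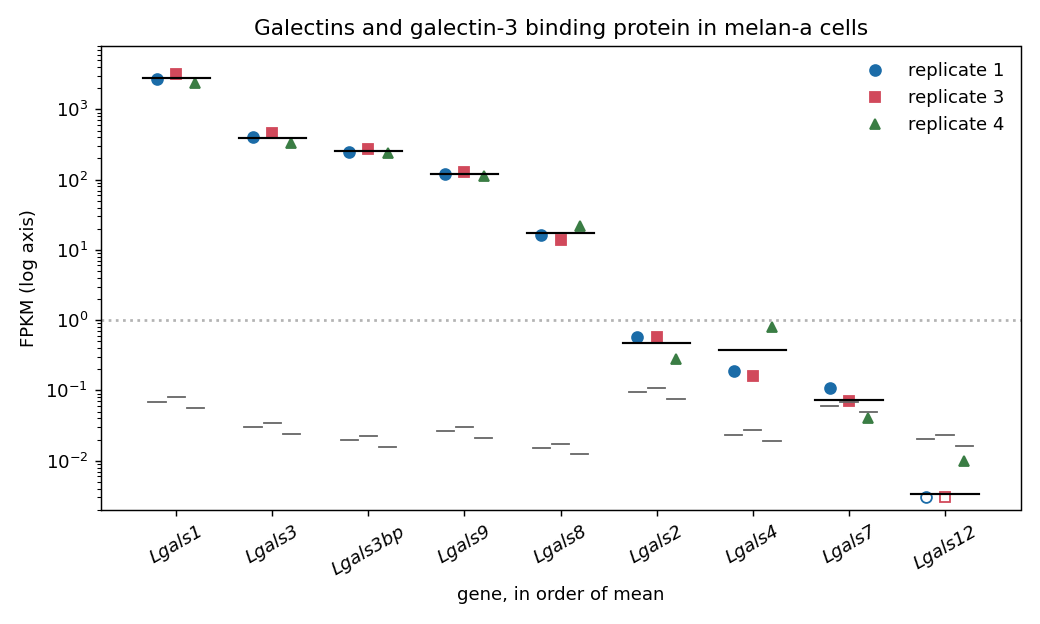
Level of each member in each replicate, in FPKM on a log axis. Filled symbols are replicates 1, 3 and 4, open symbols at the bottom mark a value listed at 0, black bars are means, grey ticks are the value of 3 reads, and the dotted line is 1 FPKM. The 5 members on the left lie above 14 FPKM in all replicates and the 4 on the right lie below 1 FPKM.

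Among the prototype galectins, *Lgals1* was the only one above the minimum. *Lgals1* (ENSMUSG00000068220, chr15:78757155-78760895, plus strand, 1 annotated transcript of 800 bases) measured 2732.05, 3225.79 and 2343.79 FPKM in replicates 1, 3 and 4. Its mean was 2767 ± 442 FPKM (SD, n = 3), rank 9 of all 22698 genes by mean FPKM. Galectin-1 is a secreted dimer that cross-links surface glycans and binds matrix glycoproteins. Replicate 3 was the highest and replicate 4 the lowest, and even the lowest value rested on about 124315 reads. This single gene held 0.721%, 0.818% and 0.653% of the summed FPKM of all genes. The genes next to it in the ranking were *Sparc*, a matrix glycoprotein, at 3002 FPKM and *Fth1*, the heavy chain of ferritin, at 2749 FPKM, both within 1 SD of *Lgals1*.

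*Lgals2* and *Lgals7*, the other prototype genes, rested on few reads. *Lgals2* (ENSMUSG00000043501, chr15:78681292-78685959, minus strand) encodes a galectin of the gastrointestinal tract and lies 71195 bases from *Lgals1*. It measured 0.57, 0.58 and 0.28 FPKM, from 18, 16 and 11 reads, with counting intervals of 0.335 to 0.895, 0.331 to 0.939 and 0.140 to 0.503 FPKM. Replicate 4 was the lowest, but its interval overlapped those of replicates 1 and 3. Of the exon bases of *Lgals2*, 41 also lie in exons of a gene on the opposite strand. *Lgals7* (ENSMUSG00000053522, chr7:29648872-29651303, plus strand), the galectin of stratified epithelia, measured 0.11, 0.07 and 0.04 FPKM, which came to about 5, 3 and 2 reads. Those values lie close to the 0.0600, 0.0690 and 0.0488 FPKM of 3 reads on this gene, so its level could hardly be told from the limit. Of the keratinocyte markers, *Krt10* was the highest with 0.51, 0.29 and 0.67 FPKM, and the other 5 did not exceed 0.05 FPKM.

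*Lgals3*, the chimera galectin, was the second member by level. *Lgals3* (ENSMUSG00000050335, chr14:47987426-48005835, plus strand, 6 annotated transcripts) measured 399.52, 459.59 and 332.75 FPKM in replicates 1, 3 and 4, with a mean of 397.3 ± 63.4 FPKM (SD, n = 3) and rank 104. Galectin-3 acts at the surface, in the cytosol and in the nucleus, and gathers on damaged endosomes and lysosomes. As for *Lgals1*, replicate 3 was the highest and replicate 4 the lowest. Its neighbours in the ranking were *Sqstm1* at 410.0 FPKM, the autophagy receptor p62, and *Hspa8* at 388.6 FPKM, a chaperone of the cytosol.

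*Lgals3bp* is not a galectin. It encodes a secreted, heavily glycosylated scavenger receptor protein that galectin-3 and galectin-1 bind. *Lgals3bp* (ENSMUSG00000033880, chr11:118254065-118263406, minus strand, 5 transcripts) measured 248.82, 271.29 and 237.96 FPKM, with a mean of 252.7 ± 17.0 FPKM (SD, n = 3) and rank 190. The order of the replicates was that of *Lgals3*, over a narrower range. *Rab38*, a melanosome trafficking GTPase, at 254.1 FPKM and *Rac1*, a GTPase of the cytoskeleton, at 252.5 FPKM were the next genes above and below it.

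Of the tandem-repeat galectins, *Lgals9* and *Lgals8* were expressed. *Lgals9* (ENSMUSG00000001123, chr11:78776476-78798448, minus strand, 4 transcripts), whose product is known for its action on T cells, measured 119.25, 127.27 and 111.27 FPKM, with a mean of 119.3 ± 8.0 FPKM (SD, n = 3) and rank 463. *Lgals8* (ENSMUSG00000057554, chr13:12531682-12557211, minus strand, 10 transcripts), whose product recognizes damaged vesicles and binds integrins, measured 16.46, 14.04 and 21.81 FPKM, with a mean of 17.4 ± 3.98 FPKM (SD, n = 3) and rank 3616. In the deposited values *Lgals8* was the only expressed member with replicate 4 as its highest and replicate 3 as its lowest. Its lowest value still rested on about 2428 reads.

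*Lgals4* and *Lgals12*, also of the tandem-repeat type, were below 1 FPKM. *Lgals4* (ENSMUSG00000053964, chr7:29618813-29626722, plus strand, 7 transcripts), a galectin of the intestinal epithelium, measured 0.19, 0.16 and 0.79 FPKM, from about 24, 18 and 124 reads. The counting interval of replicate 4, 0.656 to 0.941 FPKM, did not overlap those of replicates 1 and 3, 0.120 to 0.280 and 0.0960 to 0.256 FPKM. Replicate 4 was 4.16-fold higher than replicate 1 and 4.94-fold higher than replicate 3. Of 1134 genes with a mean of 0.19 to 0.76 FPKM and a value above 0 in every replicate, the median ratio of the highest to the lowest replicate was 1.46, and 27 (2.38%), *Lgals4* included, had a ratio as large. In 2 of those genes, again with *Lgals4* counted, replicate 4 was as far above both others. This band was set around the mean of *Lgals4*, which without replicate 4 was 0.175 FPKM in place of 0.380. The comparison was made for *Lgals4* alone, with its values known, so it is a description and not a test. The gene beside it, *Ech1*, which ends 1546 bases upstream, measured 66.13, 70.91 and 64.41 FPKM, and *Lgals7*, 22149 bases downstream, had its lowest value in replicate 4. The markers of intestinal epithelium summed to 0.48, 0.61 and 0.54 FPKM in replicates 1, 3 and 4. Nearly all of this sum was *Vil1*, at 0.48, 0.6 and 0.52 FPKM, while *Cdx1*, *Cdx2* and *Krt20* were listed at 0 throughout. *Epcam*, at 0, 0.01 and 0.02 FPKM, was highest in replicate 4 but stayed below the value of 3 reads. The cause of the higher value of *Lgals4* in replicate 4 was not tested.

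*Lgals12* (ENSMUSG00000024972, chr19:7671150-7681683, minus strand, 4 transcripts), a galectin of adipocytes and the member without a full binding block, was listed at 0 in replicates 1 and 3 and at 0.01 FPKM in replicate 4, which came to about 2 reads. On this gene 3 reads came to 0.0201, 0.0231 and 0.0163 FPKM, and the value of replicate 4 lies below that of 3 reads. The 4 adipocyte markers summed to 0.04, 0.1 and 0.05 FPKM.

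**Figure D2:**
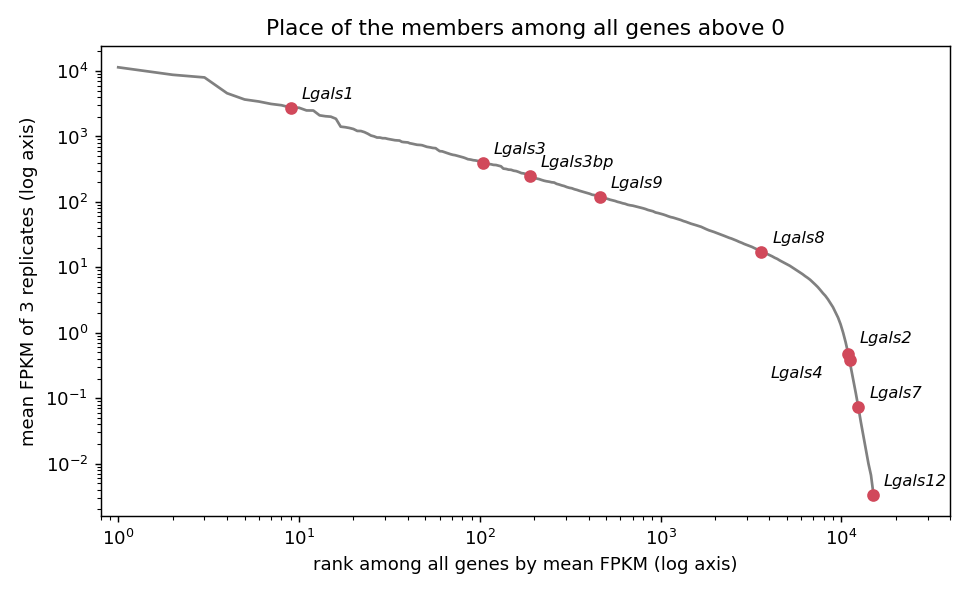
Mean FPKM of all genes above 0 against their rank (grey line, both axes logarithmic), with the 9 members as red points. *Lgals1* stands at rank 9 and *Lgals3*, *Lgals3bp* and *Lgals9* lie within the first 463 ranks, *Lgals8* is at rank 3616, and the other 4 lie at rank 10920 or beyond.

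The order of the family by mean was *Lgals1*, *Lgals3*, *Lgals3bp*, *Lgals9*, *Lgals8*, *Lgals2*, *Lgals4*, *Lgals7* and *Lgals12*. By the listed values of each replicate, every step of this order held except that between *Lgals2* and *Lgals4*, though the lowest steps rest on few reads. *Lgals1* exceeded *Lgals3* by 6.84-, 7.02- and 7.04-fold in replicates 1, 3 and 4. *Lgals3* exceeded *Lgals3bp* by 1.61-, 1.69- and 1.40-fold, the smallest step among the expressed members. *Lgals3bp* exceeded *Lgals9* by 2.09-, 2.13- and 2.14-fold, and *Lgals9* exceeded *Lgals8* by 7.24-, 9.06- and 5.10-fold. For these 4 steps the ranges of the replicates did not overlap between the genes compared. The ratios of *Lgals1* to *Lgals3* and *Lgals3bp* to *Lgals9*, varied less between replicates than the levels themselves, with an SD of 0.02 on the log2 scale in each case.

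The step from *Lgals8* to the members below it was the widest of the 7 steps for which a ratio could be taken. *Lgals8* exceeded *Lgals2* by 28.9-, 24.2- and 77.9-fold, where the last value rests on 11 reads of *Lgals2*. *Lgals2* and *Lgals4* overlapped. *Lgals2* was higher in replicates 1 and 3, by 3- and 3.63-fold, and *Lgals4* was higher in replicate 4, where the ratio of *Lgals2* to *Lgals4* was 0.354. Their order is therefore not settled by these data. *Lgals4* exceeded *Lgals7* by 1.73-, 2.29- and 19.8-fold, with a mean ratio (geometric) of 4.27. Without replicate 4 this step was 0.99 on the log2 scale in place of 2.09. The ratio of replicate 4 rests on about 2 reads of *Lgals7*, and in replicates 1 and 3 the counting intervals of both genes overlapped. Those of *Lgals7* and *Lgals12* overlapped in replicates 3 and 4, so neither step is clear of counting error in every replicate.

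Summed per length, the 9 members reached 3517, 4099 and 3049 FPKM, or 0.928%, 1.04% and 0.849% of all FPKM in replicates 1, 3 and 4. *Lgals1* supplied 77.7%, 78.7% and 76.9% of that sum (mean 77.8 ± 0.913%, SD, n = 3). *Lgals3* followed with a mean of 11.2%, *Lgals3bp* with 7.17%, *Lgals9* with 3.38% and *Lgals8* with 0.509%. The other 4 members together came to less than the SD of the share of *Lgals8*. *Lgals1* has the shortest joined exons of the 5 expressed members, 800 bases against 1858 to 3688, so that its share of the estimated reads was smaller, 55.3%.

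The spread between replicates was small for a pair of expressed members and larger for the other 3. The SD of log2 FPKM was 0.23 for *Lgals1* and 0.23 for *Lgals3*, 0.10 for both *Lgals3bp* and *Lgals9*, and 0.32 for *Lgals8*, beside a median of 0.16 over 10007 genes at or above 1 FPKM. Of these genes, 27.0% and 27.3% had a smaller SD than *Lgals3bp* and *Lgals9*, and 84.5% had a smaller SD than *Lgals8*. Between replicates 3 and 4, the log2 ratio was 0.46 for *Lgals1*, 0.47 for *Lgals3*, 0.19 for *Lgals3bp*, 0.19 for *Lgals9* and -0.64 for *Lgals8*.

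The GC content of a gene's exons moved with this ratio over all genes. The median log2 ratio of replicate 3 to replicate 4 was -0.14 for 2643 genes of 45 to 50% GC, 0.16 for 2744 genes of 50 to 55% and 0.39 for 1931 genes of 55 to 60%. *Lgals8* has 47.1% GC, *Lgals9* 51.5%, *Lgals1* 54.9%, *Lgals3bp* 55% and *Lgals3* 55.9%. After the trend over all genes was removed, the SD fell to 0.09 for *Lgals1*, 0.07 for *Lgals3*, 0.06 for *Lgals3bp* and 0.05 for *Lgals9*, while *Lgals8* kept an SD of 0.23. Over all genes the median SD was then 0.10. *Lgals8* stood above it, with a smaller SD in 87.1% of genes. With the trend removed *Lgals3bp*, like *Lgals8*, was highest in replicate 4 and lowest in replicate 3, at log2 deviations of 0.06 and -0.04.

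**Figure D3:**
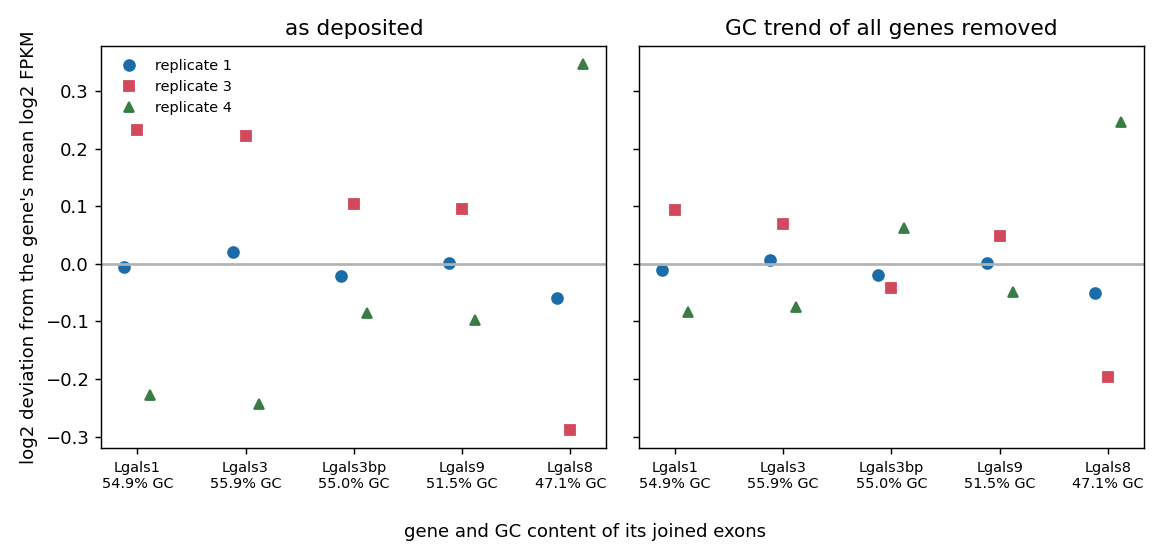
Deviation of each replicate from the mean log2 FPKM of the 5 expressed members, as deposited (left) and after removal of the trend with GC content over all genes (right). Points are replicates 1, 3 and 4. On the left *Lgals1* and *Lgals3* are high in replicate 3 and *Lgals8* is high in replicate 4, and on the right the spread of the first 4 genes shrinks to SDs of 0.05 to 0.09 and that of *Lgals8* to 0.23.

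The 250 bases before the annotated start of each member were then read, because CpG-rich promoters are common among expressed genes. This look at the promoters was chosen after the levels had been seen. The main annotated start of each of the 9 members had 0 to 8 CpG dinucleotides in this window, below the median of 9 over 22305 protein-coding genes. The median was 16 for the 10003 genes at or above 1 FPKM and 4 for the 12302 others. Among the expressed members, *Lgals3* had 8, *Lgals1* 7, *Lgals3bp* and *Lgals9* 3 each, and *Lgals8* 0. Of all genes at or above 1 FPKM, 19.6% had fewer than 9. The count depends on the start used, since the 6 annotated starts of *Lgals3* gave 6 to 19 and the 6 of *Lgals8*, spread over 3454 bases, gave 0 to 16. Which start the cells use was not tested, because the files hold 1 value per gene.

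**Figure D4:**
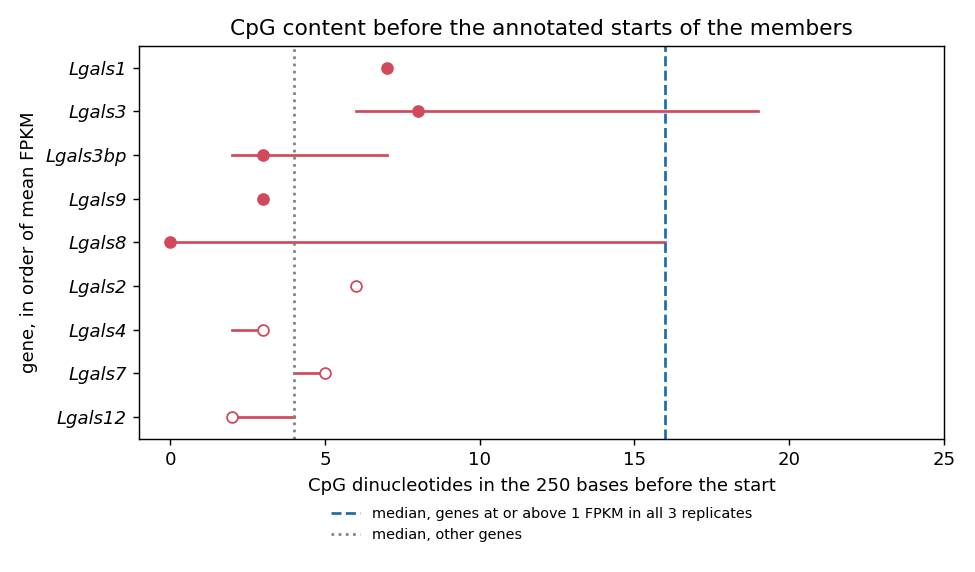
CpG dinucleotides in the 250 bases before the start of each member. Points are the main annotated start, filled for members at or above 1 FPKM in all replicates, lines span all annotated protein-coding starts, and vertical lines are the medians of 16 for genes at or above 1 FPKM and 4 for other genes. All 9 points lie at 8 or below, and the lines of *Lgals3* and *Lgals8* reach 19 and 16.

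The windows of the main annotated starts were also searched for 4 short motifs, and those of the other annotated starts were not. The letters were GCCNNNGGC, the core motif of TFAP2 factors, GGGCGG, the core of a GC box, and CACGTG and TCATGTG, E-box letters that MITF can bind. On either strand, GCCNNNGGC was in the window of *Lgals1* and of no other member, against 15.4% of all 22305 windows. GGGCGG was in the windows of *Lgals1*, *Lgals4*, *Lgals7* and *Lgals12*, against 41.3% of all windows. CACGTG and TCATGTG were in none of the 9 windows and in 6.64% and 2.77% of all windows. These are matches of letters and not measured sites.

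The genes around the galectins were taken from fixed lists by symbol. Among the galectin relatives, *Lgalsl*, which encodes a galectin-like protein, measured 17.12, 15.45 and 18.25 FPKM, a level like that of *Lgals8*, and its coding sequence holds no full binding block. *Grifin*, the galectin-related protein of the lens, was listed at 0 in every replicate. *Lgals6* was not matched and has no value here.

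The enzymes that build galectin ligands were mostly above the minimum. Of 9 genes for branching and extension of N-glycans, 8 (88.9%) were at or above 1 FPKM in every replicate, beside 44.1% of all genes. At or above 5 FPKM were 6 of the 9. *Mgat5*, whose product makes the branch that galectin-3 binds well, measured 12.23, 11.27 and 11.91 FPKM. *Mgat4b*, another branching enzyme, was the highest with 179.69, 213.82 and 131.35 FPKM, while its relative *Mgat4a* had a mean of 2.11 FPKM. *Mgat3*, which adds the bisecting residue, had a mean of 2.54 FPKM, and *B4galt1*, which adds the galactose, 21.5 FPKM. *B3gnt2*, which extends the chains with N-acetyllactosamine repeats, was listed at 0.03, 0.04 and 0.03 FPKM. However, 74.6% of its exon bases are shared with another gene on the same strand, so that its value is uncertain.

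All 3 genes of the O-glycan core passed the minimum, with means of 22.8 FPKM for *C1galt1*, 14.7 FPKM for its chaperone *C1galt1c1* and 15.7 FPKM for *Gcnt1*, whose product makes a branched core that galectin-1 binds. So did all 7 sialyltransferases of galactose, beside 44.1% of all genes. *St6gal1*, whose linkage of sialic acid blocks binding by galectin-1, was the highest of them with 51.0, 49.89 and 47.5 FPKM, and the 6 *St3gal* genes had means between 22.1 and 34.9 FPKM.

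Of 13 glycoproteins and matrix proteins known as partners of galectins, 12 (92.3%) passed the minimum, beside 44.1% of all genes. The highest were *Bsg* at a mean of 729.9 FPKM, which encodes basigin, *Fn1* at 694.5 FPKM, which encodes fibronectin, and *Lamp1* at 497.8 FPKM, a lysosomal membrane glycoprotein. *Itgb1*, the integrin β1 chain, had a mean of 452.8 FPKM and *Mcam*, a surface receptor of galectin-1 and galectin-3, 412.3 FPKM. Both means lay within 1 SD of that of *Lgals3*. *Thy1* was the exception at a mean of 0.0233 FPKM, below the value of 3 reads in replicates 3 and 4. None of 4 receptors studied on immune cells passed. *Ptprc* and *Cd7* were listed at 0 throughout, *Havcr2*, a receptor of galectin-9, had a mean of 0.07 FPKM and *Spn* 0.507 FPKM.

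Of 8 partners in the cytosol and nucleus, 5 (62.5%) passed, beside 44.1% of all genes. *Sqstm1* had a mean of 410.0 FPKM, and *Pdcd6ip*, which encodes the membrane repair factor ALIX, 49.9 FPKM. *Hras*, whose product binds galectin-1, had a mean of 27.4 FPKM. *Tax1bp1*, an autophagy receptor, measured 31.26, 18.12 and 41.04 FPKM, with replicate 3 the lowest and replicate 4 the highest, as for *Lgals8*. *Calcoco2* was listed at 0 in every replicate. *Trim16* and *Gemin4* had means of 0.3 and 0.00667 FPKM, but 36.8% and 89.8% of their exon bases are shared with other genes on the same strand, so that both values are uncertain.

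**Figure D5:**
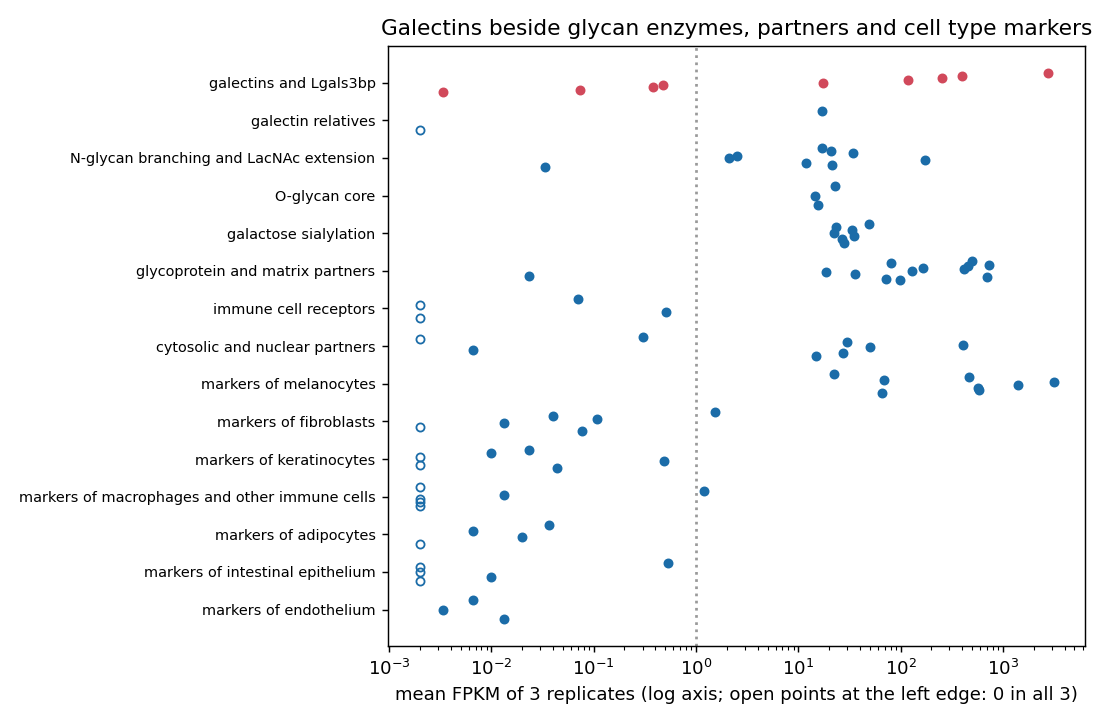
Mean FPKM of the 9 members (red) and of the genes in 14 lists (blue), on a log axis, 1 point per gene. Open points at the left edge are genes at 0 in all 3 replicates and the dotted line is 1 FPKM. Genes of glycan enzymes and of melanocyte markers lie almost all to the right of the line, and those of other cell types and of immune cell receptors almost all to the left.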

How the data were processed

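Total RNA of 3 replicates of melan-a cells was made into stranded mRNA libraries. The authors trimmed 10 bases from each read, used STAR to align them to mm9, discarded those from rRNA and counted the remainder on the genes of Ensembl release 67 with HTSeq. The submitters' processing notes name CASAVA 1.8.2, STAR 2.3.0e, HTSeq 0.5.3p3, SAMtools and edgeR. The authors deposited FPKM values (normalised by the trimmed mean of M values, 2 decimals). How counts became FPKM is not given in the sources used here.

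The members and lists were chosen with earlier results of these data known. All 9 members, the listed genes and the next genes above and below each expressed member by mean FPKM could be named. The genes beside *Lgals4* and the promoter letters were chosen after values were seen. The comparison with genes of like level was made for *Lgals4* alone. Means, SDs, ranks (ties by identifier) and ratios within each replicate were computed from FPKM without a pseudocount, with biopython 1.88, matplotlib 3.10.9, scipy 1.17.1, pandas 2.3.3 and numpy 2.4.6 under Python 3.11.15. Positions, exons and sequences came from GENCODE gene models of Ensembl release 65 on NCBIM37, the assembly of mm9, which lack 374 of the 22698 genes. Sequences are those of this reference and not of the cells.

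The library size of a replicate was the one at which low values of genes with 1 transcript of 100 to 600 bases came closest to whole reads. Over 179, 184 and 197 genes values lay on average 0.0551, 0.0507 and 0.0712 reads off a whole number, and in 20 shuffles of the lengths the lowest such distance was 0.194. For genes with several transcripts (24, 26 and 27 genes), joined exons gave smaller distances (0.122 to 0.149) than the longest transcript (0.172 to 0.230), and joined exons were used. These distances were larger than those of genes with 1 transcript. Read numbers and intervals of members with several transcripts are therefore less certain. The fit of the library size and the removal of the GC trend were tried on simulated data. The simulated reads used the same exon lengths as the fit, so they cannot show whether the authors used these lengths. With a single group no test between groups was made. A few listed genes and 1 sequence are not reported here.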

Additional observations from a re-analysis of the deposited data

How the results depend on the processing

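Of the 7 steps between neighbouring members, mean log2 ratios kept their sign without each replicate and with pseudocounts of 1 and 0.1. That of *Lgals2* to *Lgals4* fell to 0.18 without replicate 1 and to 0.04 without replicate 3. The order of these 2 genes by mean FPKM turned in both cases. *Lgals2* was at 0.43 against 0.475 FPKM for *Lgals4* without replicate 1, and at 0.425 against 0.49 FPKM without replicate 3. With 1 added to each value the step from *Lgals8* to *Lgals2* was 3.63 in place of 5.24, since the values of *Lgals2* lie below that pseudocount. With the longest transcript as gene length, the step from *Lgals1* to *Lgals3* was 2.41 in place of 2.80, that from *Lgals3bp* to *Lgals9* 0.94 in place of 1.08, and that from *Lgals2* to *Lgals4* turned to -0.18 from 0.65. The share of *Lgals1* in the members' sum was 55.3% in reads in place of 77.8% in FPKM. With the GC trend removed, the SD of log2 FPKM was 0.0899 for *Lgals1*, 0.0725 for *Lgals3*, 0.0550 for *Lgals3bp* and 0.0489 for *Lgals9*. The count of 5 expressed members was the same at 0.5 and 5 FPKM. At 5 FPKM 6 of the 9 N-glycan genes passed in place of 8 and 0 of the fibroblast markers in place of 1, and at 0.5 FPKM 1 immune marker passed in place of 0. Rescaling each replicate to a sum of 1000000 raised every level, to 7307 for *Lgals1*, and kept the order. Without replicate 4 the mean of *Lgals4* was 0.175 in place of 0.380, the step from *Lgals2* to *Lgals4* was 1.72, and *Lgals12* was at 0. No paired analysis was possible because the series holds 1 group. Depth limits only the 4 members below 1 FPKM, of which *Lgals7* and *Lgals12* were within about 5 reads.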
